A study of Rattus norvegicus with 24 samples.

Results

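The circadian clock genes Per1, Per2, Per3, Arntl, Clock, Cry1, Cry2, Nr1d1, Nr1d2 and Dbp were followed in the blood of rats given bacterial lipopolysaccharide (LPS) and fed oat beta-glucan. Members were the probes of two-color Agilent rat microarrays whose gene name equals 1 of these 10 symbols. The rule found all 10 genes, of 25885 gene names on the array, with 16 of its 30367 probes. Blood RNA came from 24 male Sprague-Dawley rats, 8 weeks old at the start and fed for 6 weeks, with 4 rats in each of 6 groups. C-G0, C-G1 and C-G2 received no LPS, and LPS-G0, LPS-G1 and LPS-G2 received LPS at 10 mg/kg intravenously. G0 was a semi-synthetic diet without added beta-glucan. G1 and G2 were the same kind of diet with oat beta-glucan of high and of low molecular weight, respectively. All rats had fasted before blood was drawn by cardiac puncture under isoflurane, and the hour of sampling is not given in the sources used here. The title of 2 LPS-G0 arrays (replicates 3 and 4) names LPS while their treatment field names control, so the main results that rest on them are also given without them where that changed a value or a side of the threshold.

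In the mammalian clock, the activators ARNTL (also called BMAL1) and CLOCK bind as a pair to E-box sequences and switch on the Per and Cry genes. PER and CRY proteins then enter the nucleus and repress that pair, which closes a daily loop. NR1D1 and NR1D2 (REV-ERB alpha and beta) form another loop by repressing Arntl, and DBP is an output factor that binds D-box sequences. White blood cells carry such clocks, and Per1 is also a direct target of glucocorticoids.

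Sequence elements of this loop were looked for in the RefSeq promoters of the members (GRCr8 build, 250 bases before to 50 after the start), since the rule did not use them. The motifs, searched on both strands, were CACGTG (E-box), its variant CACGTT, TTANGTAA (D-box), NTAGGTCA and NTGGGTCA (ROR elements, where NR1D proteins also bind) and TGACGTCA (cAMP response element). Windows were found for 9 of the 10 genes, and Cry1 had none. Of all 33469 rat promoter windows, 6.42%, 4.83%, 2.24%, 2.62%, 4.08% and 1.83% held these 6 motifs in the order given. Among the members, Nr1d1 had CACGTG in 1 of its 2 windows and CACGTT in the other, and Cry2 and Per2 had CACGTT. Per2 also had TTANGTAA, and Arntl had NTAGGTCA. The bases before the start are shown for these last 3 genes because they hold matches to the E-box variant, the D-box and the ROR element (motif matches in capitals, 5′ to 3′). Cry2 lies at chr3:98860438-98860687 on the minus strand, Per2 at chr9:99496994-99497243 on the minus strand and Arntl at chr1:176766078-176766327 on the plus strand.
Cry2: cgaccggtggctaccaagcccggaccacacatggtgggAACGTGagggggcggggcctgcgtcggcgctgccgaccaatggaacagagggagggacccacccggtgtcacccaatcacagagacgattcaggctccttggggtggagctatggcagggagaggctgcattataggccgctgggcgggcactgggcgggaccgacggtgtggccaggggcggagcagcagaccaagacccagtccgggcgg
Per2: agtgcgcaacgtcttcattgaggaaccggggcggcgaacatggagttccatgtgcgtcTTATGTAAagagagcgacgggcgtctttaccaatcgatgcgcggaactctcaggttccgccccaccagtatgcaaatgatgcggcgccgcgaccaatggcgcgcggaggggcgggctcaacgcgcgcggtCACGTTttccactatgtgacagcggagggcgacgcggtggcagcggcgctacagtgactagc
Arntl: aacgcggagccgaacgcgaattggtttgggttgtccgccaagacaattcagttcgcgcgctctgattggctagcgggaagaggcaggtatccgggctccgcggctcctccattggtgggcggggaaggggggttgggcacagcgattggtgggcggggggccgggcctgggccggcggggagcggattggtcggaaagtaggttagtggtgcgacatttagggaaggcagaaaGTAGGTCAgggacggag
A match describes these letters only. None of the 6 motifs was in the windows of Per1, Per3, Clock, Nr1d2 or Dbp.

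Blood RNA of single rats gave a usable signal for 4 of the 10 genes. Dbp was well above background in the rat channel on 24 of 24 arrays, Per3 on 23, Cry2 on 20 and Cry1 on 16. The other 6 genes fell short of the filter, which asks for all 4 arrays of at least 1 group. Each gene is given by its brightest probe unless another is named. On the rn4 build of the array's design these probes lie at chr7:20708985-20709044 (Cry1), chr3:76802802-76802861 (Cry2, minus strand), chr5:168152779-168152838 (Per3, minus strand) and chr1:96178423-96178482 (Dbp). Among the activators, Clock was above background on 5 arrays, of which 3 were C-G1, and Arntl on 2 (1 of C-G0 and 1 of C-G2). Per1, a repressor, was above background on 6 arrays. The repressors Per2, Nr1d1 and Nr1d2 were above background on 0 of 24 arrays.

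**Figure D1:**
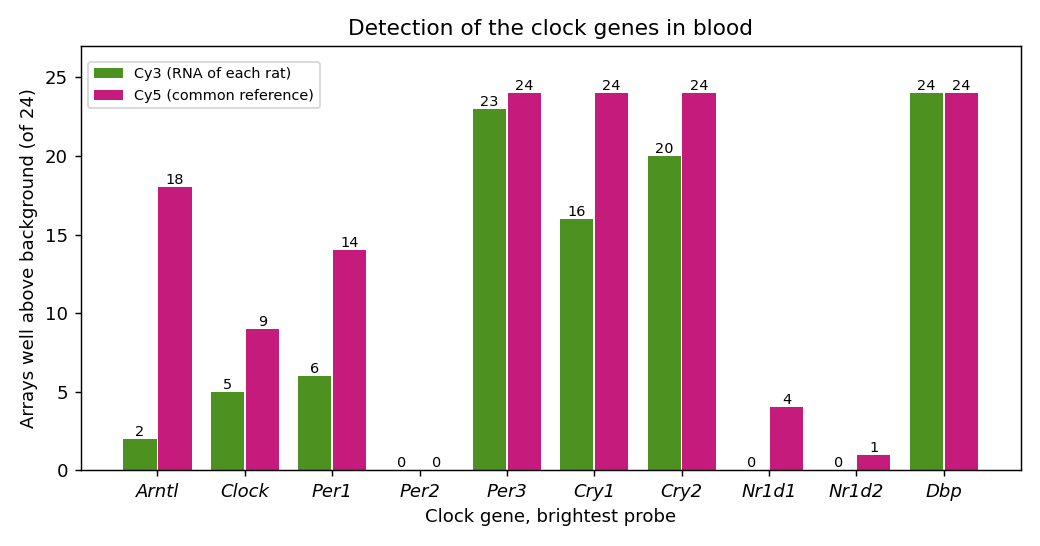
Number of the 24 arrays on which the brightest probe of each clock gene was well above background (vertical axis), in the rat channel (Cy3, green) and in the common reference (Cy5, pink). Per2 was at 0 in both channels, while Dbp reached 24 in both and Arntl 2 in Cy3 and 18 in Cy5.

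Per the study's methods, the common reference was pooled from RNA of other rats of the experimental groups, so its signal too is of rat blood. In the common reference channel, Arntl was above background on 18 arrays, Per1 on 14, Clock on 9, Nr1d1 on 4 and Nr1d2 on 1. That channel was more sensitive in general, with 14400 to 22449 probes above background per array against 7786 to 15385 in the rat channel. The blood markers Hbb, Alas2, Cd3e, Cd79b, S100a9 and Pf4 were above background on all 24 arrays. For a dim gene only a bound on the fold change can be given, and it applies where exactly 1 of the groups compared had no array above background. By Cy3 signal alone, the bound for Clock was 1.34-fold for C-G1 (3 of 4 arrays above background) over LPS-G1. Against C-G0 that bound was 1.18-fold. The mean log2 ratio of Clock was 0.81 in C-G1, 0.03 in LPS-G1 and 0.72 in C-G0. By the ratio, C-G1 and C-G0 thus lay closer together than 1.18-fold. For Per1 the bound was 1.21-fold for LPS-G0 over LPS-G1, where the 1 array of LPS-G0 above background (replicate 4, on slide 3) has conflicting labels. The brightest probe of Arntl gave no bound above 1. Its other probe gave 1.21 for C-G0 (1 array above background) over C-G2 and 1.03 for C-G0 over LPS-G0. These bounds come from the Cy3 channel after normalization between arrays, are open to dye bias and carry no test, because none of these probes passed the filter. The mean of the brighter group includes its arrays not above background, so the bounds are not strict lower limits.

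Detection of Per1 went with the slide. The arrays lay on 3 slides of 8, each with all 6 groups. All 6 arrays on which Per1 was above background lay on slide 3, and slides 1 and 2 had 0 of 8 each. The mean log2 ratio of its probe was -0.71 on slide 1, -0.07 on slide 2 and 0.66 on slide 3 (SD 0.45, 0.54 and 0.55, n = 8 each). Slide 3 also had the most probes above background, with a median of 13532 per array against 11202 on slide 1 and 10561.5 on slide 2. Within slide 3, the highest Per1 ratios were 1.63 in LPS-G0 replicate 4 and 1.29 in LPS-G2 replicate 4, and the lowest was -0.10 in LPS-G1 replicate 4. The part of the slide in the Per1 values was not tested.

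All ratios are log2 of rat RNA (Cy3) over the common reference (Cy5), as the sample labels name the dyes. The study's methods name them the other way round, which would turn every sign. The SD between arrays of a group was larger in Cy3 for 95.3% of 7074 probes bright in both channels (median 0.38 against 0.26), and a reference common to all arrays should vary less.

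Cry1 encodes a strong transcriptional repressor of the clock. In C-G0 its ratios were -0.53, -0.02, -0.14 and 0.68, and in LPS-G0 they were 0.05, -0.61, 0.00 and -0.94. In C-G1 they were 0.07, 0.68, 0.60 and 0.49, and in LPS-G1 -0.08, 0.32, -0.05 and 0.15. In C-G2 they were -0.58, 0.24, -0.02 and 0.05, and in LPS-G2 -0.19, -0.81, -0.77 and -0.17. The highest group was thus C-G1 and the lowest LPS-G2, and the groups with and without LPS overlapped on each diet. C-G1 was also the only group in which Cry1 was above background on all 4 arrays, so the probe passed the filter through its highest group alone. A difference that includes C-G1 was favored by that choice, and the p-values below are given as a description.

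The mean of Cry1 was lower in the LPS group on all 3 diets, without passing the test. The difference was -0.37 ± 0.26 (log2, SE, n = 4 a group) on G0, -0.37 ± 0.26 on G1 and -0.41 ± 0.26 on G2. By exact permutation tests (two-sided) the p was 0.371, 0.0857 and 0.143, where 4 against 4 arrays cannot go below 0.0286. The differences on G0 and G2 do not include C-G1. Over the 3 diets together the difference was -0.38 ± 0.15 (12 against 12 arrays), with a 95% interval from -0.69 to -0.08. That gave an unadjusted p of 0.0159 and an adjusted p of 0.516 in limma's moderated test, so Cry1 was not called. Of all probes tested, 9.61% had an unadjusted p under 0.05 in that comparison, a share that was 19.3% without C-G0 replicate 1, 6% without C-G1 replicate 2 and 5.6% without C-G2 replicate 2. The difference in Cry1 was not seen within each slide. On slide 1 it was 0.06, on slide 2 -0.48 and on slide 3 -0.73, with 4 arrays with and 4 without LPS on each. Of the arrays on which Cry1 was not above background, 5 had LPS and 3 did not. With background correction by normexp and loess, the difference was -0.12 (adjusted p = 0.543). That correction adds an offset of 50 to each channel, which shrinks the ratios of dim probes. The Cy3 signal of Cry1 ran from 45.7 to 215. Without the 2 arrays with conflicting labels the difference was -0.35 (adjusted p = 0.662) over the diets and -0.28 ± 0.30 on G0.

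**Figure D2:**
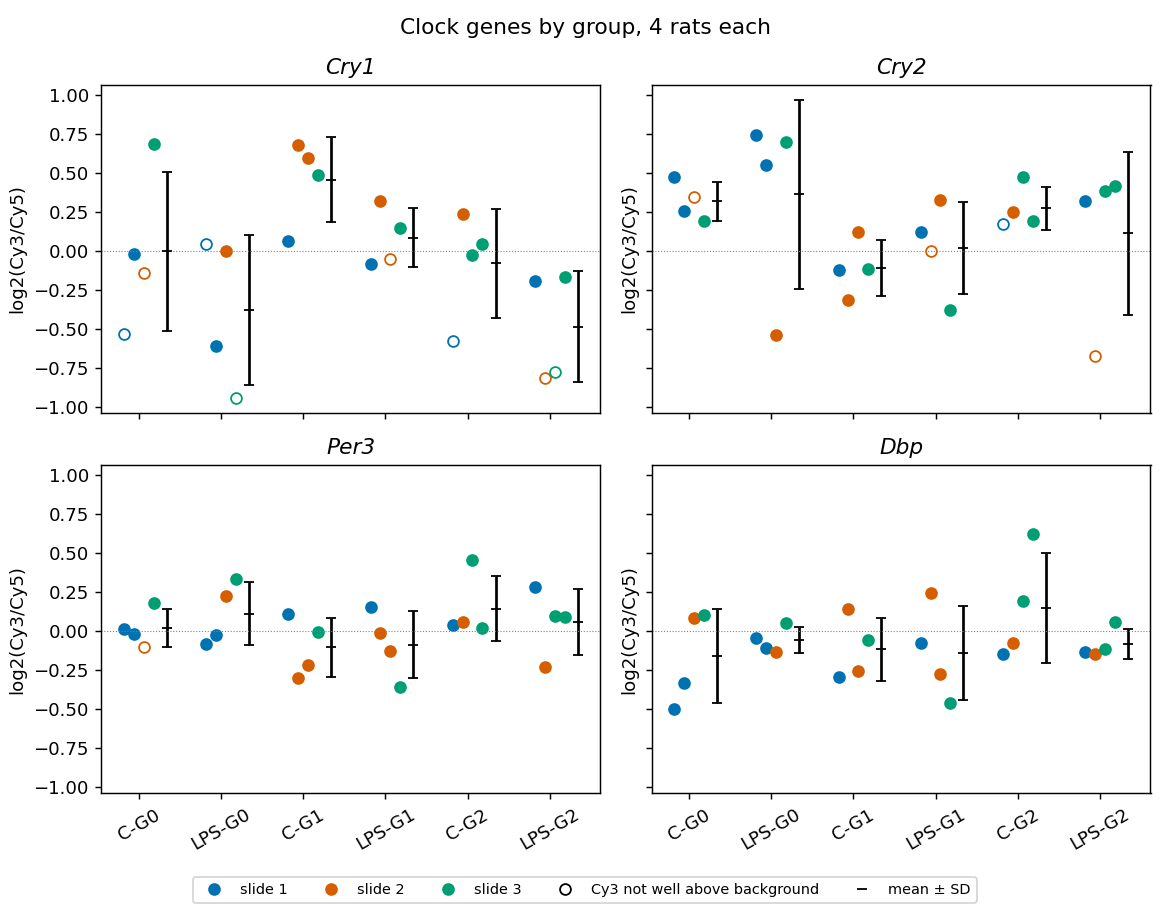
Log2 ratio of rat RNA over the common reference (vertical axis) for Cry1, Cry2, Per3 and Dbp in the 6 groups (horizontal axis), 1 point per rat, colored by slide, with open points where the rat channel was not well above background and bars for the mean ± SD (n = 4). The Cry1 points of the LPS groups lie lower on average than those without LPS on each diet, with overlap, and the Dbp points stay between -0.50 and 0.63.

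The members were set beside markers of the cells in blood. Across the 24 arrays Cry1 correlated with the mean ratio of the T cell markers (r = 0.602, permutation p = 0.00215, adjusted p = 0.0287; rho = 0.547, p = 0.00649, adjusted p = 0.0504). Within slides 1, 2 and 3, r was 0.331, 0.482 and 0.873. With the erythroid markers the relation was inverse (r = -0.589, p = 0.00139, adjusted p = 0.0278; rho = -0.572, p = 0.00405, adjusted p = 0.0504), at -0.492, -0.768 and -0.300 within the slides. For the brightest probe of Dbp with the T cell score, r was 0.517 (permutation p = 0.00905, adjusted p = 0.0905) and rho 0.538 (adjusted p = 0.0504). Within the slides r was 0.669, 0.822 and 0.263. That probe correlated at r = 0.0853 and 0.274 with the other 2 probes of Dbp, which were not set beside the scores. Cry2 ran against the monocyte score (r = -0.502, permutation p = 0.0129, adjusted p = 0.103; rho = -0.557, adjusted p = 0.0504; -0.724, -0.411 and -0.636 within the slides). For Cry2 with the erythroid score, r was 0.354 (permutation p = 0.0908, adjusted p = 0.282) and rho 0.527 (adjusted p = 0.0504), with r at 0.834, 0.106 and 0.280 within the slides. For Cry1, without the 2 arrays farthest from the median of the marker score, r was 0.508 (permutation p = 0.0159) for T cells and -0.439 (p = 0.0401) for erythroid cells. These relations were computed after the data were seen, among 40 in all, of which 3 had an adjusted p under 0.05 for Pearson's r, all with Cry1. Arrays were shuffled across the groups, so differences between groups enter these values. C-G1, through which alone Cry1 passed the filter, had the highest group mean of Cry1 (0.46) and of the T cell score (0.07). It had the lowest of the erythroid score (-0.65). The part of the groups in these relations was not tested, and the p-values are a description. In whole blood, fewer cells of a type and less RNA per cell cannot be told apart. The T cell score ran from -0.46 to 0.28 with LPS (mean -0.07) and from -0.54 to 0.35 without (mean -0.02), and the erythroid score from -0.66 to 0.15 (mean -0.01) and from -1.45 to 0.26 (mean -0.26). The part of the cell types in these values was not tested.

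Cry2, the other cryptochrome, separated 1 pair of groups. Its ratios in C-G0 were 0.48, 0.26, 0.35 and 0.19, and those in C-G1 were -0.12, -0.31, 0.12 and -0.12. All 4 C-G1 rats were below all 4 C-G0 rats. The difference was -0.43 ± 0.25 (log2, SE), with a 95% interval from -0.94 to 0.09, an exact permutation p of 0.0286 (two-sided, the smallest possible) and an adjusted p of 0.247 in limma. In the same comparison 7.04% of all probes tested did not overlap, and Cry2 was 1 of 4 clock genes that did so. Single spots of the Cry2 probe on 1 array differed with an SD of 0.52, above its pooled SD within groups of 0.36. Its 2 spots were averaged for each rat, and the part of the spots in this separation was not tested. In LPS-G0 the Cry2 ratios were 0.74, 0.55, -0.54 and 0.70. In LPS-G1 they were 0.12, 0.00, 0.33 and -0.38, and in C-G2 0.17, 0.25, 0.48 and 0.19. In LPS-G2 they were 0.32, -0.67, 0.38 and 0.42. LPS-G0 and LPS-G2 each held 1 rat far below the other 3. Over the 3 diets, LPS made a difference of 0.00 ± 0.14 (95% interval -0.29 to 0.30, adjusted p = 0.997). Without the 2 arrays with conflicting labels that difference was 0.10 ± 0.13 (adjusted p = 0.853). The difference of LPS-G1 from LPS-G0 was -0.34 ± 0.25 (adjusted p = 0.378) and that of LPS-G2 from LPS-G0 -0.25 ± 0.25 (adjusted p = 0.806), and without those arrays they were -0.63 ± 0.25 (unadjusted p = 0.021, adjusted p = 0.283) and -0.53 ± 0.25 (unadjusted p = 0.0459, adjusted p = 0.907). The 2 LPS-G0 arrays that remain did not overlap with C-G0, LPS-G1 or LPS-G2 in Cry2, against 13.6%, 40.1% and 26.8% of all probes.

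Per3, the member of the Period family least needed for the core loop, varied little. Its ratios ran from -0.36 to 0.46 over the 24 arrays. The group means lay between -0.10 ± 0.19 (SD, n = 4) in C-G1 and 0.14 ± 0.21 in C-G2. No pair of compared groups was separated. The difference with LPS over the 3 diets was 0.01 ± 0.09 (log2, SE; 95% interval -0.18 to 0.19, adjusted p = 0.98). Of the other probes of Per3, 1 was above background on 2 arrays and 1 on 0, so they add nothing to these values.

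Dbp, an output of the clock with a strong rhythm in many tissues, was above background on the most arrays. The ratios of its brightest probe were -0.50, -0.33, 0.08 and 0.11 in C-G0 and -0.04, -0.11, -0.13 and 0.05 in LPS-G0. In C-G1 they were -0.30, 0.14, -0.25 and -0.06, and in LPS-G1 -0.07, 0.24, -0.27 and -0.46. In C-G2 they were -0.15, -0.08, 0.19 and 0.63, and in LPS-G2 -0.13, -0.14, -0.11 and 0.06. All groups overlapped, and the highest rat was of C-G2. The difference with LPS over the 3 diets was -0.05 ± 0.10 (log2, SE), and its 95% interval in fold terms ran from 0.831 to 1.12 (adjusted p = 0.895). The largest difference was that of C-G2 over C-G0, at 0.31 ± 0.18 (adjusted p = 0.472).

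The gene has 3 probes, which gave a check on the size of these shifts. They lie within chr1:96178064-96178482 (rn4 build, plus strand) and are named the first, the second and the third by brightness. The second was above background on 24 arrays and the third on 22. On the third probe, all 4 C-G2 rats (-0.08, -0.17, 0.22 and 0.20) were above all 4 C-G0 rats (-0.21, -0.33, -0.57 and -0.30), with a difference of 0.40 ± 0.21 and an adjusted p of 0.423. In that comparison 2.64% of all probes did not overlap. For LPS over the 3 diets the second and the third probe gave 0.08 ± 0.08 and 0.05 ± 0.12, opposite in sign to the brightest. On the second probe the difference of C-G2 from C-G0 was 0.10 ± 0.14, and these groups overlapped. Across the 24 arrays the first and second probe correlated at r = 0.0853 (permutation p = 0.695), the first and the third at 0.274 (p = 0.195) and the second and the third at 0.414 (p = 0.0446, adjusted p = 0.134). Spearman's rho for these pairs was 0.142 (p = 0.509), 0.273 (p = 0.197) and 0.456 (p = 0.027). Within the slides, r of the second and the third probe was -0.0357, 0.0499 and 0.293. The probes of 1 transcript thus gave weak correlations within each slide.

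**Figure D3:**
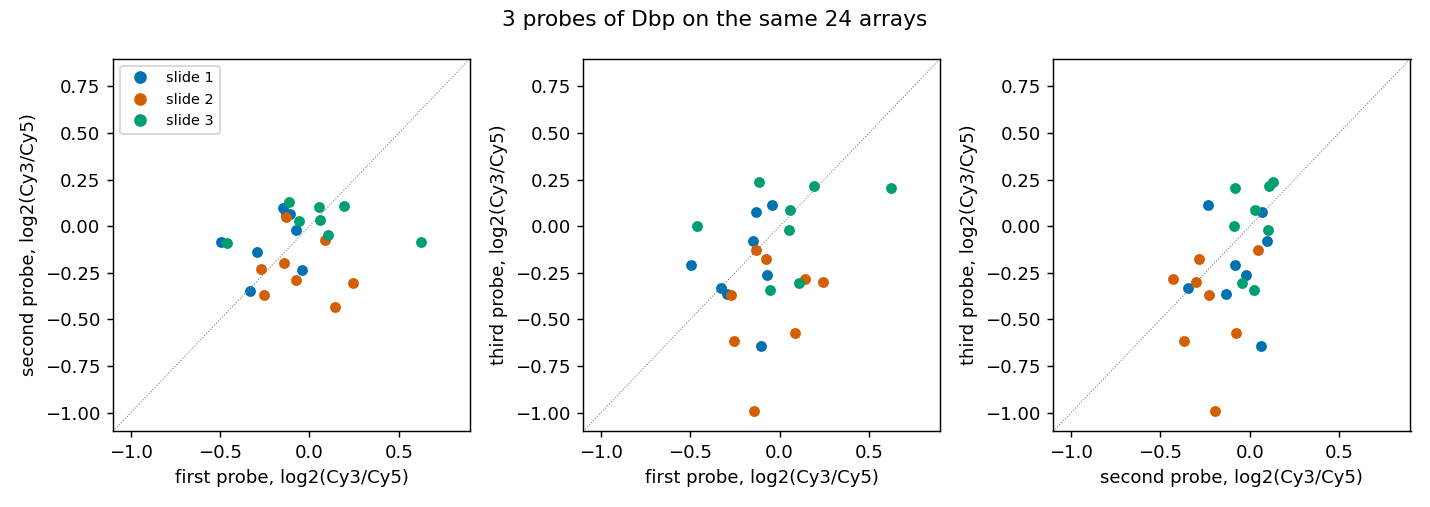
Log2 ratio of each pair of the 3 Dbp probes (horizontal and vertical axes), 1 point per array, colored by slide, with a dotted line of equality. The points of the first and second probe show no common direction (r = 0.0853), and the second and the third reach r = 0.414 over all slides.

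No clock gene was called in any comparison by limma's moderated test at an adjusted p under 0.05. For LPS against no LPS, that was 0 of 4 clock genes on the G0 diet (0% of all 10708 probes tested were called), on G1 (0.00934%), on G2 (0%) and over the 3 diets (0.0187%). Between diets among the rats with LPS, it was 0 of 4 for G1 against G0 (0.028%) and for G2 against G0 (0%). Without LPS it was 0 of 4 for G1 against G0 (0.028%) and for G2 against G0 (0.028%). The F test over the 6 groups called 0 of 4 (0.00934% of all probes), and the interactions of LPS with G1 and with G2 called 0 of 4 (0% and 0%). Since few probes of any kind were called, the count of 0 among the members does not set them apart.

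At an unadjusted p under 0.05, the 4 clock genes gave 1 result in the 8 comparisons, Cry1 with LPS over the 3 diets. The shares of all probes at that level in the other 7 comparisons, in the order above, were 11.3%, 2.81%, 1.09%, 23.7%, 5.29%, 27.9% and 13.3%. In the F test Cry1 had an unadjusted p of 0.0169 (adjusted 0.139), and 23.3% of all probes were at that level. That p too rests on a probe that passed the filter through C-G1 alone. Between-group overlap was absent for 0 of 4 clock genes between rats with and without LPS on G0, G1 and G2, against 4.9%, 2.73% and 1.07% of all probes. It was absent for 0 of 4 also between LPS-G0 and LPS-G1 (21.4% of all probes) and between LPS-G0 and LPS-G2 (10.2%). Without the 2 arrays with conflicting labels, limma called 0 of 4 clock genes in each of the 8 comparisons, and Cry2 joined Cry1 at an unadjusted p under 0.05, in both comparisons of diets among rats with LPS (15.9% and 3.65% of all probes). The median difference of the 4 genes with LPS over the 3 diets was -0.02 (log2), and that of all probes was 0.01. The comparisons of the G1 and G2 diets with G0 share the G0 arrays.

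**Figure D4:**
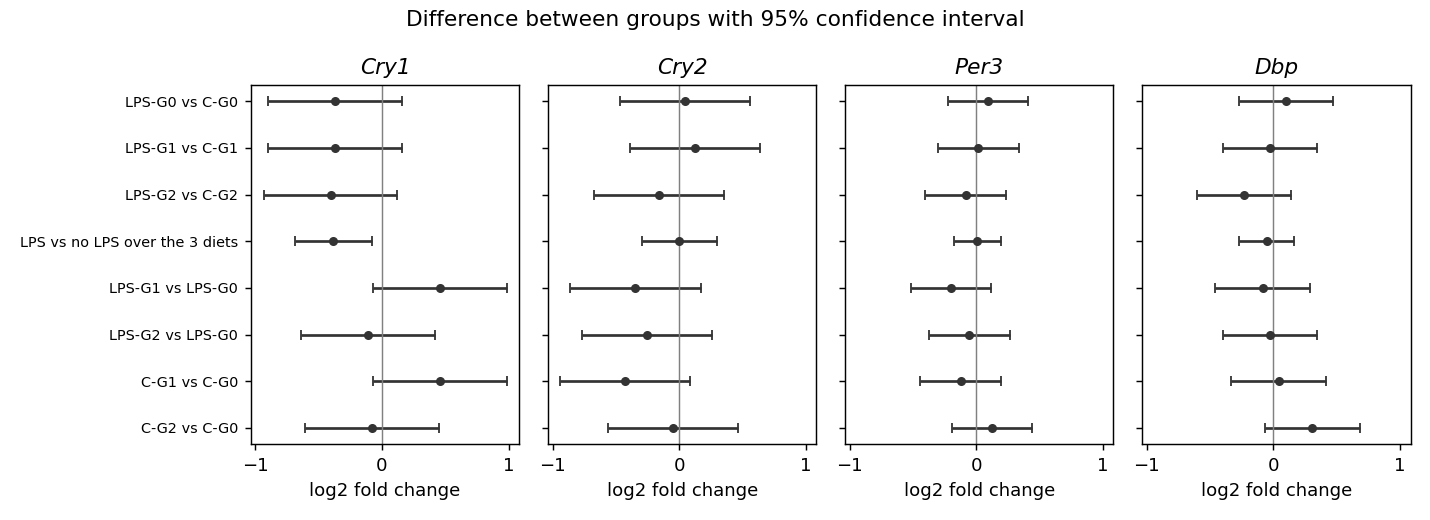
Log2 fold change (horizontal axis) of Cry1, Cry2, Per3 and Dbp in the 8 comparisons (vertical axis), as points with 95% confidence intervals from limma. Of the 32 intervals, that of Cry1 for LPS over the 3 diets, from -0.69 to -0.08, excludes 0.

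Samples taken at different hours would be a source of spread between rats of a group, so the spread of the clock genes was set beside that of all probes. The pooled SD within groups was 0.19 for Per3, 0.25 for Dbp, 0.36 for Cry2 and 0.38 for Cry1 (log2, 18 residual degrees of freedom). In the ranking of all 10708 probes tested these were at percentiles 10.8, 25.4, 63 and 65.7, where the median probe had 0.32 and the highest 10% began at 0.54. None of the 4 genes was in that highest 10%, and Per3 and Dbp were below the median. The other 2 probes of Dbp were at percentiles 4.56 and 44.5. Single spots of 1 probe on 1 array differed with an SD of 0.15 for Per3, 0.14 for Dbp, 0.37 for Cry1 and 0.52 for Cry2. For Cry1 the SD of single spots was near that between rats, and for Cry2 above it. These probes have 2 spots each, which were averaged for each rat. The SD of single spots therefore overstates the part of the spots in the SD between rats. The spread of Cry2 differed between groups, from 0.12 in C-G0 to 0.61 in LPS-G0, and without the 2 LPS-G0 arrays with conflicting labels its percentile was 36.4. Without LPS-G2 replicate 2 alone Cry2 was at 45.2. With background correction by normexp and loess, Cry2 was at percentile 6.69 and Cry1 at 26.7. The offset of 50 in that correction shrinks the ratios of dim probes and so their SD. The Cy3 signal ran from 44.8 to 195 for Cry2 and from 45.7 to 215 for Cry1. Whether rats were sampled at different hours was not tested.

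**Figure D5:**
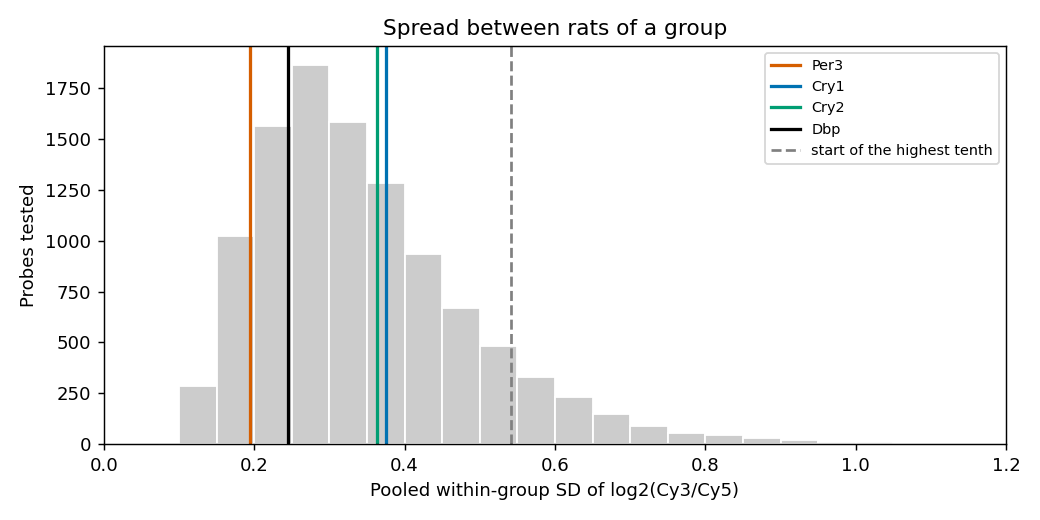
Histogram of the pooled within-group SD of the log2 ratio (horizontal axis) over the 10708 probes tested (vertical axis, number of probes), with a line for each measured clock gene and a dashed line where the highest 10% begins. Per3 (0.19) and Dbp (0.25) lie left of the median of 0.32, and Cry1 and Cry2 lie right of it, below the dashed line at 0.54.

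Clock genes that follow a common phase would rise and fall together from rat to rat, so all 6 pairs of the 4 genes were correlated. No pair passed an adjusted p of 0.05 for Pearson's r over the 24 arrays in the deposited ratios. With normexp and loess, Per3 with Cry2 (r = 0.551, adjusted p = 0.0319) and Cry1 with Cry2 (r = -0.492, adjusted p = 0.0448) passed by permutation. With Cy3 alone, Per3 with Cry2 (0.583, adjusted p = 0.00882), Per3 with Dbp (0.733, adjusted p = 0.00012) and Cry2 with Dbp (0.546, adjusted p = 0.0115) passed by permutation. Cy3 alone was scaled per array but not divided by the reference, so differences between arrays and slides can enter. The part of the slide in these 3 pairs was not tested. In the deposited ratios, with differences between groups included, the strongest was Per3 with Cry2. Its rho was 0.260 (permutation p = 0.219, adjusted p = 0.365) and its r 0.407 (permutation p = 0.0478, adjusted p = 0.287). That r was 0.272 (permutation p = 0.22) without the 2 arrays farthest from the median of Per3. Within slides 1, 2 and 3 it was -0.535, -0.0115 and 0.868, so it rested on slide 3. Without LPS-G0 replicate 3 it was 0.556 (adjusted p = 0.0358). For Cry1 with Cry2, r was -0.281 (permutation p = 0.185, adjusted p = 0.38) and rho -0.463 (permutation p = 0.0236, adjusted p = 0.142), and neither passed. Within the slides r was -0.253, 0.340 and -0.652, and without LPS-G2 replicate 2 it was -0.547 (adjusted p = 0.041). For Per3 with Dbp, r was 0.267 (permutation p = 0.208, adjusted p = 0.38), for Per3 with Cry1 -0.243 (p = 0.253, adjusted p = 0.38), for Cry1 with Dbp 0.188 (p = 0.382, adjusted p = 0.458) and for Cry2 with Dbp 0.125 (p = 0.56, adjusted p = 0.56). Spearman's rho for these pairs was 0.234 (p = 0.27), -0.222 (p = 0.297), 0.218 (p = 0.304) and 0.168 (p = 0.433). With group means subtracted, the strongest pair was Cry1 with Dbp (r = 0.388, permutation p = 0.0616, adjusted p = 0.369). Per3 with Cry2 was then at 0.280 (permutation p = 0.185, adjusted p = 0.554). Cry1 with Cry2 was then at -0.122 (permutation p = 0.574, adjusted p = 0.861).

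The probes of other genes most like each member were picked from all probes tested. Over the 24 arrays the 3 probes most like Cry1 were those of Mllt6 (r = 0.879), L3mbtl3 (0.874) and Eif2ak4 (0.873). Those most like Cry2 were Clip1 (0.835), LOC689587 (0.806) and Dpf1 (0.787). For Dbp they were XM_234397 (0.817), LOC690096 (0.806) and Romo1 (0.786), and for Per3 RGD1563941 (0.774) and 2 probes without a gene name (0.771 and 0.759). They are the highest of 10708, so they cannot be set against the correlations between members, and each value is a description only.

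Of 19 other genes of the clock, 15 had a probe of that name and 7 passed the filter. These were Npas2 (a partner that can stand in for CLOCK), Arntl2, the casein kinases Csnk1d and Csnk1e (which phosphorylate PER proteins), the ubiquitin ligase part Btrc (which marks PER for breakdown), the kinase Gsk3b and the deubiquitinase Usp2. None was called in any of the 8 comparisons. At an unadjusted p under 0.05, 5 of 7 were lower in C-G1 than in C-G0 and 0 were higher. They were Npas2 (-0.88 ± 0.28, log2, SE; adjusted p = 0.11), Btrc (-0.94 ± 0.34; 0.131), Usp2 (-0.61 ± 0.20; 0.115), Csnk1e (-0.49 ± 0.21; 0.156) and Gsk3b (-0.38 ± 0.18; 0.171). The median over the 7 genes was -0.615, against 0.02 over all probes, and 27.9% of all probes had such a p in that comparison. Without C-G0 replicate 1 it was 3 of 7 genes (10.4% of all probes), and without C-G1 replicate 2 it was 2 of 7 (12.6%). Among rats with LPS, 3 of 7 were lower on G1 than on G0 at an unadjusted p under 0.05 (Npas2, Csnk1e and Btrc), beside 23.7% of all probes, and the median was -0.518 (0.07 over all probes). Without the 2 arrays with conflicting labels it was 1 of 7 (Csnk1e), beside 15.9%. Csnk1e was higher with LPS over the 3 diets (0.32 ± 0.12, unadjusted p = 0.0162, adjusted p = 0.516).

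The mean ratio of these 7 genes ran against Cry1 over the 24 arrays (r = -0.685, permutation p = 0.00016, adjusted p = 0.0064; rho = -0.699, p = 0.00021, adjusted p = 0.0084). It kept that sign within the slides, at -0.535, -0.786 and -0.652, and r was -0.631 (permutation p = 0.00172) without the 2 arrays farthest from the median of the score. The same score ran with the erythroid score (r = 0.835, permutation p = 1e-05, the smallest possible, adjusted over 2 relations p = 2e-05; rho = 0.709, p = 0.00022), at 0.748, 0.932 and 0.713 within the slides. Without the 2 arrays farthest from the median erythroid score, that r was 0.680 (permutation p = 0.00068). With the T cell score it was -0.490 (permutation p = 0.0136, adjusted p = 0.0136; rho = -0.355, p = 0.0903, adjusted p = 0.0903), or -0.362 (p = 0.0985) without the 2 farthest arrays, at -0.681, -0.478 and -0.698 within the slides. By rho the score of the 7 genes ran with Cry2 (0.639, p = 0.00104, adjusted p = 0.0208), while r was 0.487 (p = 0.0159, adjusted p = 0.106). Within the slides r for Cry2 was 0.539, -0.0578 and 0.762. The erythroid and T cell scores were the only 2 cell scores set beside the score of the 7 genes. Both had an adjusted p under 0.05 with Cry1, and the adjustment over 2 relations leaves that choice out. C-G1 had the lowest group mean of the 7 genes (-0.36) and of the erythroid score (-0.65), and arrays were shuffled across the groups. Cry1 passed the filter through C-G1 alone, so these p-values are a description.

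Glucocorticoids set the phase of clocks outside the brain, and Per1, their target, was too dim to compare. Of 10 glucocorticoid-responsive genes, 6 passed the filter and none was called in any comparison. At an unadjusted p under 0.05, Tsc22d3 (0.51 ± 0.21, log2, SE; adjusted p = 0.159) and Ddit4 (0.84 ± 0.28; adjusted p = 0.11) were higher in LPS-G1 than in LPS-G0, which is 2 of 6 beside 23.7% of all probes. Without the 2 arrays with conflicting labels it was 0 of 6. Cebpd was lower with LPS over the 3 diets (-0.25 ± 0.12; adjusted p = 0.517). The mean ratio of the 6 genes correlated with Cry1 at r = 0.396 (permutation p = 0.0554, adjusted p = 0.238; rho = 0.397, p = 0.0556, adjusted p = 0.222) and with Dbp at r = 0.332 (p = 0.114, adjusted p = 0.285; rho = 0.282, p = 0.184, adjusted p = 0.433). With Cry2 it was -0.314 (permutation p = 0.135, adjusted p = 0.3; rho = -0.429, p = 0.0382, adjusted p = 0.176), and -0.633 (p = 0.00164) without the 2 arrays farthest from the median score, with r at -0.631, 0.339 and -0.689 within the slides. With Per3 it was -0.301 (permutation p = 0.153, adjusted p = 0.322; rho = -0.285, p = 0.176, adjusted p = 0.433).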

How the data were processed

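Blood RNA of single rats (Cy3) was hybridized with a common reference (Cy5). Per the file headers, the authors' processed intensities were made with Agilent Feature Extraction 10.10.1.1 (the submitters' processing notes name 10.7.3.1), with background subtraction and Lowess dye balance. The deposited log10 values are ratios of Cy5 over Cy3, set to 0 on 22.6% of spots, all of which used a surrogate for a dim signal. Another deposited table, for the whole series, repeated all log10 values (1511424) without a difference. Here the per-array values were turned to log2 of Cy3 over Cy5. Control spots and outlier spots (679 to 1133 per array) were left out, and the spots of a probe averaged. A probe counted as well above background where at least 50% of its spots did. A probe was kept if it passed in Cy3 throughout any 1 group, which left 10708 for a fit with limma 3.58.1 (R 4.3.3) as 6 groups, with Benjamini-Hochberg adjustment over these probes. The fit was tested on simulated data. Pairs of genes were tested with 100000 resamples. Array numbers limit the precision. Each gene was represented by the probe with the highest mean Cy3 signal. The members, lists and tests were chosen with earlier results of these data known. Clock genes without a probe of that name (Hlf, Ciart, Cipc and Fbxl21) were not analysed here, and some items are not reported here. Alternatives covered the samples, blocks, filters, normalization, channel, centring, variance model and call rule, and the use of the processed ratio on every spot was added after the data were seen, as were the gene lists, overlaps and correlations with arrays left out. P-values measure the spread between these arrays.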

Additional observations from a re-analysis of the deposited data

Results flagged for a closer look

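In 7 of 36 groups of 4 arrays (6 clock probes in 6 groups), 1 rat stood far from the other 3 by Dixon's test. Independent groups of normal values would give that in about 1 of 20. The 36 groups are not independent, since 3 of the 6 probes are of Dbp and all share the same arrays. The share over all probes was not computed, so the count does not set the clock genes apart. Per3 was 0.46 in C-G2 replicate 3, and the nearest rat was at 0.06. Cry2 was -0.54 in LPS-G0 replicate 3, 1 of the arrays with conflicting labels, with the nearest at 0.55. Cry2 was also -0.67 in LPS-G2 replicate 2, where the rat channel was not above background, with the nearest at 0.32. The same array was lowest on the third Dbp probe, at -0.99, with the nearest at 0.07. On the first Dbp probe LPS-G2 replicate 4 was 0.0588, with the nearest at -0.11. On the second Dbp probe C-G0 replicate 2 was -0.35 (nearest -0.09) and LPS-G0 replicate 1 was -0.23 (nearest 0.05). No array stood apart on more than 1 Dbp probe.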

How the results depend on the processing

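The count of called clock genes was 0 for each of the 8 comparisons, the F test and the interactions under all alternatives run except the unadjusted p, which gave 1 (Cry1, LPS over the 3 diets). The count in the highest 10% of spread was 0 under 36 alternatives, for the genes tested in each. With probes bright on all 24 arrays that was Dbp alone, and with the 16 arrays Cry1 was missing. Without the 2 arrays with conflicting labels, Cry1 correlated at -0.653 with the other clock genes, 0.587 with T cells and -0.601 with erythroid cells. Cry1 kept its direction under all 36 alternatives, between -0.44 and -0.31 with each array left out, and its fold was -0.38 with the slide block (adjusted p = 0.303) and with the replicate block (adjusted p = 0.257). It could not be fitted with the 16 arrays or with probes bright on all 24, where it failed the filter. Most of these alternatives reuse the same ratios, and Cry1 passed the filter through C-G1 alone, a group without LPS. Its kept direction and its correlations in this section are therefore a description. Pairs past the adjusted p numbered 0 in the main result, 3 with Cy3 alone (led by Per3 with Dbp, r = 0.733) and 2 with normexp and loess, and between 0 and 1 with each array left out. That 1 was Per3 with Cry2 without LPS-G0 replicate 3 (r = 0.556) and Cry1 with Cry2 without LPS-G2 replicate 2 (r = -0.547). The cause was not tested.

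Over all probes the number called moved far more. With array weights LPS-G0 vs. C-G0 rose from 0 to 917 and LPS-G1 vs. LPS-G0 from 3 to 2955, the F test reached 1319 from 1 with the replicate block, and without C-G0 replicate 4 C-G1 vs. C-G0 rose from 3 to 963 and C-G2 vs. C-G0 from 3 to 353. LPS-G1 vs. C-G1 went from 1 to 4 at most, and LPS vs. no LPS from 2 to 3. LPS-G2 vs. C-G2 and LPS-G2 vs. LPS-G0 stayed at 0. Replicate numbers are not used as pairs, since same-numbered arrays had a mean correlation of 0.111 (different numbers -0.0377) and not every pair was above 0.1. The 6 dim genes limit what this array can show of the clock in blood.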
